A study of Mus musculus with 6 samples.

Results

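The contacts of the Sox9 gene were read from capture Hi-C maps of mouse limb buds as those of a viewpoint, a fixed stretch of chromatin whose partners are counted bin by bin. The viewpoint held the gene with 10 kb on each side, and spanned 112630001 to 112660000 on chromosome 11 of the mm9 build. It covered 3 of the 587 bins of 10 kb in each map, and the other 584 bins were its possible partners. A contact was counted where 1 bin lay in the viewpoint and the other lay outside it, at least 2 bins away. The maps covered 109010001 to 114880000.

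Sox9 encodes a transcription factor that directs cartilage formation and testis development. It lies at the edge of a large gene desert that holds many of its distant enhancers, and mammalian chromatin in such regions is folded into topologically associating domains, within which contacts are frequent. Boundaries between domains, often bound by CTCF and cohesin, limit contact from one domain to the next. Beyond the centromeric end of this desert lies the domain of Kcnj16 and Kcnj2, which encode potassium channel subunits.

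In capture Hi-C, DNA ends that lie close together in fixed nuclei are ligated, and the ligation products of a target region are captured by hybridisation and sequenced. The study made 6 libraries from E12.5 limb buds, each from a different genotype. WT served as control, deltaBor lacked the boundary between the Kcnj and Sox9 domains, and Dup-S, Dup-L and Dup-C carried duplications of increasing extent. Dup-LdeltaBor combined the Dup-L duplication with loss of the boundary. The sources used here do not give the zygosity of the mutants, the number of embryos or the strain. With 1 library per genotype no test between genotypes was possible, and the spread between animals was not measured. Intervals given here are exact (Clopper-Pearson) 95% intervals that cover counting error only, since amplified read pairs are not certain to be independent molecules.

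Each map held 4144258 (Dup-C) to 8965219 (Dup-LdeltaBor) contacts. The Sox9 viewpoint took 72566 of the WT contacts. Among the duplications it took 51311 (Dup-S), 70787 (Dup-L) and 31037 (Dup-C), and in the lines without the boundary 61668 (deltaBor) and 67572 (Dup-LdeltaBor). The Dup-C library thus had the fewest contacts of Sox9. The viewpoint's part of its map was 1.03% in WT, 0.973% in deltaBor and 0.972% in Dup-S. It was 0.859% in Dup-L, 0.754% in Dup-LdeltaBor and 0.749% in Dup-C. The 3 maps with long duplications were thus lowest. Levels are given below as shares of the viewpoint's own contacts, because the duplicated bins are themselves part of a map's total. A fold is a ratio of 2 such shares, and the shares of a genotype sum to 100%, so a gain in one stretch lowers the others.

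The altered segments were located in the maps from contacts that did not involve the viewpoint. Dup-L and Dup-LdeltaBor carried extra contacts over 110960001 to 112520000 (1560 kb), Dup-C over 110770001 to 112520000 (1750 kb), and Dup-S over 111750001 to 112170000 (420 kb). In deltaBor, the bin from 111390001 to 111400000 was lost. Outside the viewpoint's contacts, the median duplicated bin had 1.57 times the WT level in Dup-S, 1.79 times in Dup-L, 2.07 times in Dup-C and 2.50 times in Dup-LdeltaBor, relative to bins outside the segment. The Sox9 viewpoint lay outside every duplication, 110 kb telomeric of the end shared by Dup-L and Dup-C. Contacts with the original and the added copy of a duplicated bin fall on the same bin of the map and cannot be told apart. Distances are those of the mm9 build in all genotypes. A copy placed beside the original would lengthen the chromosome between Sox9 and the chromatin centromeric of the duplication. The place of the copy was not determined here.

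The WT boundary lay at 111380001 to 111390000, next to the lost bin and 1240 kb from the viewpoint. The Kcnj-side domain, from 110200001 to 111380000, was divided into a stretch outside every duplication (110200001 to 110770000, 570 kb), a piece duplicated only in Dup-C (110770001 to 110960000, 190 kb) and the part inside Dup-L, here called P (110960001 to 111380000, 420 kb). The duplicated part on the Sox9 side of the boundary, here called Q (111390001 to 112520000, 1130 kb), was divided into a boundary-side stretch of 360 kb, the Dup-S segment and a Sox9-side stretch of 350 kb. A further 110 kb separated Q from the viewpoint. On the telomeric side, a neighbouring stretch of 370 kb ran to the next WT minimum of insulation, at 113030001.

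**Figure D1:**
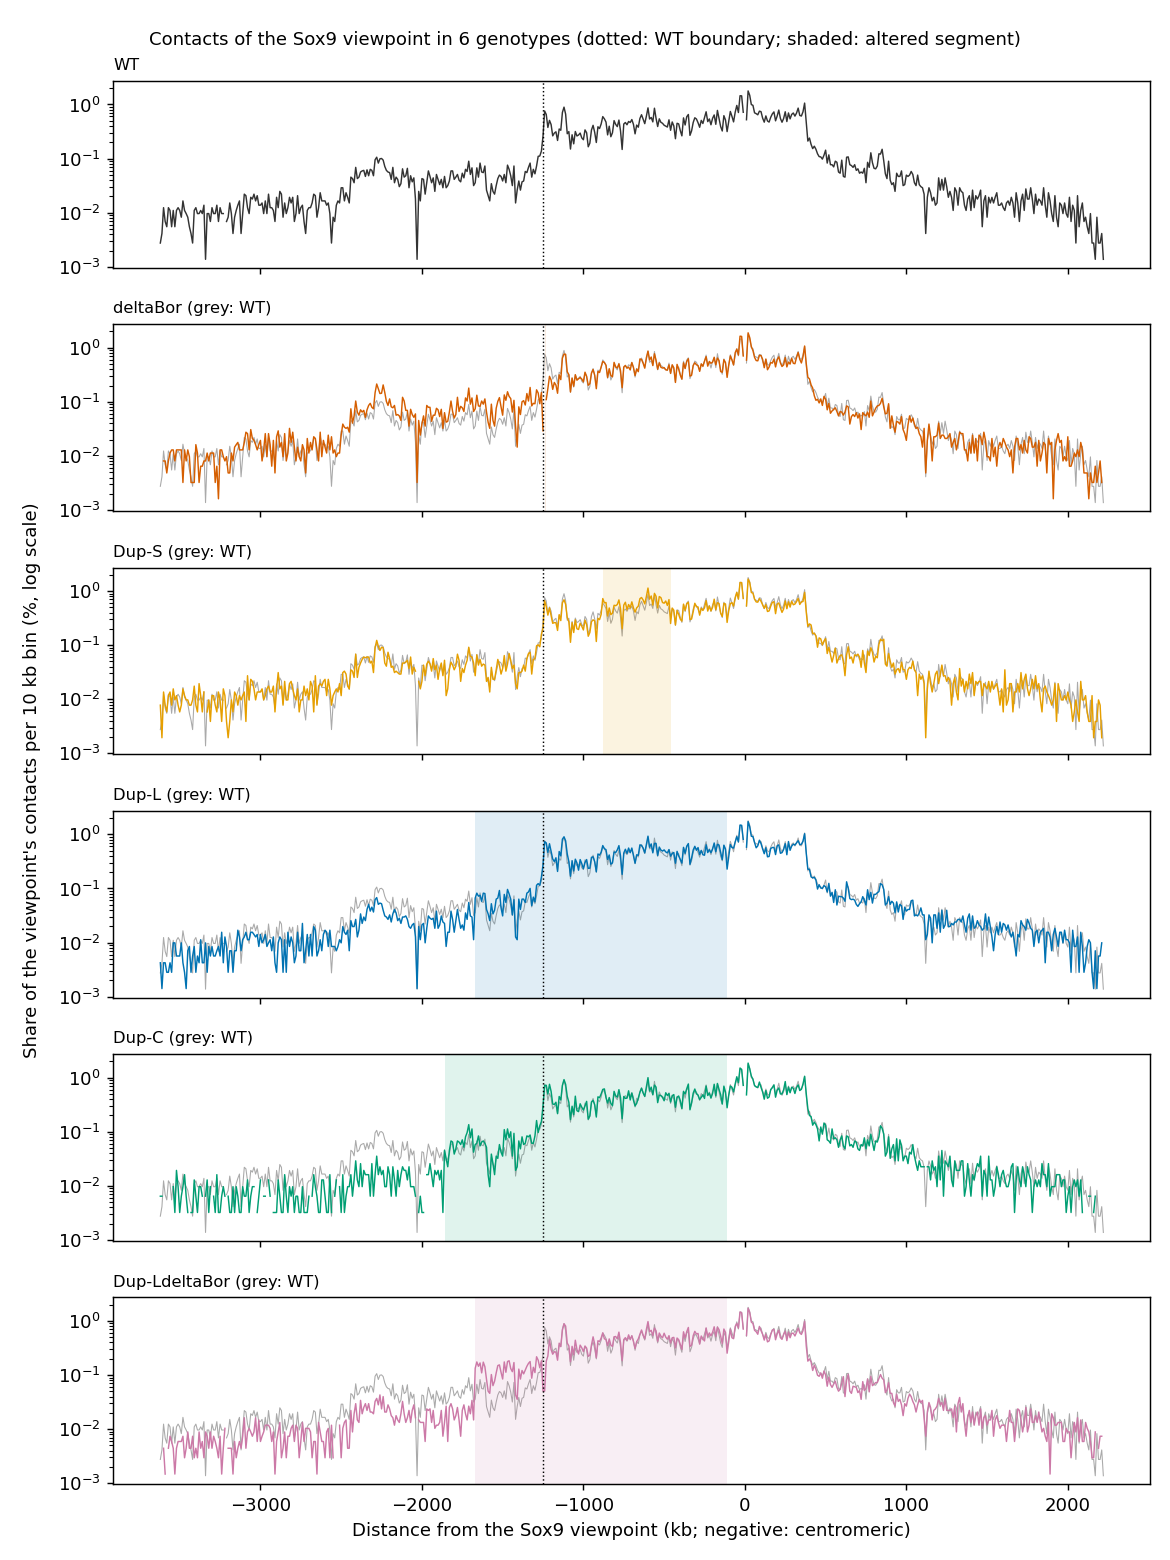
Share of the Sox9 viewpoint's contacts in each 10 kb bin (percent, log scale) against distance from the viewpoint (kb, negative values centromeric), with 1 panel per genotype, WT repeated in grey, the WT boundary dotted and the altered segment shaded. WT contacts drop at the boundary 1240 kb away and again near 370 kb on the telomeric side, and Dup-C lies below WT centromeric of its segment.

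In WT limb buds, Sox9 contacted chiefly the centromeric gene desert. Of its contacts, 65.7% (65.4% to 66.1%) were centromeric, 58.0% were with the desert between the boundary and the viewpoint, and 26.3% were with the telomeric neighbour. The Kcnj-side domain took 5.98% (5.81% to 6.16%). It is nearly as long as that desert, 1180 kb against 1240 kb, but lies 1250 kb from the viewpoint, whereas the desert lies directly beside it. The centromeric share was 67.8% in deltaBor and 68.7% in Dup-LdeltaBor, and the duplications alone had 67.0% (Dup-C), 67.4% (Dup-L) and 68.4% (Dup-S). The 5 mutants thus lay within 3 percentage points of WT on this measure, and their median centromeric contact distance was 600 to 620 kb.

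The WT contacts of Sox9 were not evenly spread through the desert. Against the mean WT contact count at the same distance over the whole map, the boundary-side stretch of Q had 4.31 times the expected contacts, the Dup-S segment 3.30 times and the Sox9-side stretch 1.51 times. The 110 kb next to the viewpoint had 0.771 times. Relative to this map-wide mean, the far end of the desert therefore held more contacts than the near end. At longer distances more of the pairs in that mean cross a domain boundary. The part of this in the rise was not tested, and no other viewpoint was measured this way. P had 1.01 times the expected contacts, the Kcnj-side stretch outside every duplication 1.80 times, and the chromatin beyond the telomeric neighbour 0.532 times. The whole Kcnj-side domain had 1.35 times and the whole desert between the boundary and the viewpoint 1.86 times. Relative to distance these 2 domains thus differed far less than in their shares.

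The highest 100 kb window of all 58 in WT, relative to distance, was 111430001 to 111530000, with 3243 contacts and 6.09 times the expected count (5.88 to 6.30). The next were 111330001, which spans the boundary (4.75 times), 111730001 (3.84), 111930001 (3.42) and 111830001 (3.39), each named by its start. On KR-normalised values, which balance the coverage of all bins, these windows had 5.16, 4.04, 3.19, 2.62 and 2.47 times. The first 3 kept ranks 1, 2 and 3 there, and the last pair took ranks 6 and 8.

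Within those windows, 5 single bins stood out, in 2 groups. One group was 111500001, 111510001 and 111520001, at 9.38, 11.6 and 8.48 times the expected count with 517, 648 and 481 contacts. The other was the lost bin 111390001 and its neighbour 111400001, at 11.5 and 9.78 times with 550 and 474 contacts. The bin removed in deltaBor was thus the second of all distant partners of Sox9 in WT, and all 5 bins kept their ranks on KR-normalised values. What lies in these bins was not annotated here.

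The 3 bins of the viewpoint differed among themselves in the side they contacted. In WT, 79.2% of the contacts of the first bin (112630001) were centromeric, against 69.2% for the middle bin (112640001) and 49.8% for the last (112650001). The telomeric neighbour took 14.3%, 23.7% and 40.2% of their contacts, and the desert up to the boundary took 71.6%, 62.3% and 41.4%. The telomeric neighbour starts directly beside the last bin and the desert directly beside the first. The last bin was itself a shallow WT minimum of insulation, with a score of -0.08 on the log2 scale, against -1.46 at the boundary. P took 2.22%, 1.84% and 2.37% of the contacts of the 3 bins, and these rose to 3.95%, 3.91% and 4.05% in deltaBor. In Dup-LdeltaBor they were 5.45%, 5.19% and 5.30%, so the 3 bins gave nearly equal shares of P wherever the boundary was lost.

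Loss of the boundary was followed by more contact of Sox9 with the Kcnj-side domain. Its share with that domain was 10.0% in deltaBor (6194 contacts) and 5.98% in WT (4340), a 1.68-fold difference (1.62 to 1.75). P rose most, from 2.19% to 3.98% (1.82-fold, 1.71 to 1.94). The piece duplicated only in Dup-C went from 0.938% to 1.59% (1.69-fold, 1.53 to 1.87) and the stretch outside every duplication from 2.85% to 4.48% (1.57-fold, 1.48 to 1.66). Beyond the Kcnj-side domain, the far centromeric chromatin differed less, at 1.51% in WT and 1.74% in deltaBor (1.15-fold, 1.06 to 1.25). Single windows were not ordered by distance: 110330001, at 2200 to 2300 kb from the viewpoint, had 1.77-fold, and 110530001, at 2000 to 2100 kb, had 1.47-fold. Outside the viewpoint's contacts P had 1.13 times its WT coverage in deltaBor, relative to the median telomeric bin, whereas per telomeric contact of Sox9 it was 1.93-fold.

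Of the 42 bins of P, 40 were higher in deltaBor than in WT, as were 19 of 19 bins of the Dup-C-only piece and 55 of 57 of the stretch outside every duplication. Over all 584 bins outside the viewpoint, 328 were higher. Of 57 windows of 100 kb with at least 100 contacts in the 2 libraries together, 9 were higher by 1.5-fold or more, against 4.35% of such windows over the 194 other 30 kb viewpoints of the map. All 9 lay in or overlapped the Kcnj-side domain. The largest gains were at 111030001 (2.19-fold, 1.86 to 2.58), 111230001 (2.03-fold) and 111130001 (2.00-fold), all in P. In the authors' deposited difference map of deltaBor minus WT, 89.7% of the pairs between the viewpoint and P were above 0. Of its pairs with all centromeric and all telomeric chromatin, 59.2% and 37.0% were above 0. The difference maps hold differences of the scaled raw maps and are not separate evidence.

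In the same library Sox9 lost contacts just on its own side of the boundary. Only 1 of the 57 windows was lower by 1.5-fold, the one spanning the boundary (111330001), which went from 2208 to 777 contacts (0.414-fold, 0.381 to 0.450). This window holds the lost bin and its neighbour 111400001, which had 550 and 474 contacts in WT and 0 and 68 in deltaBor. The background for a loss was 1.57%. The lost bin, deleted in this line, fell from 0.758% of the contacts of Sox9 to 0 of 61668 (exact upper limit 0.00598%). Its neighbour at 111400001 went from 0.653% to 0.110%. The 100 kb that follow this neighbour, 111410001 to 111510000, went from 3.80% (2756 contacts) to 2.70% (1662), a fold of 0.710 (0.667 to 0.754), so the decline was not limited to the deleted bin. The second group of WT peaks lies at the far end of that stretch and beyond it: 111510001 went from 0.893% to 0.764%, 111500001 from 0.712% to 0.645% and 111520001 from 0.663% to 0.757%.

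Closer to the gene little differed. The Dup-S segment took 19.7% in WT and 19.8% in deltaBor, a fold of 1.01 with an interval of 0.982 to 1.03. The Sox9-side stretch of Q took 16.7% and 16.5%, a fold of 0.991 (0.965 to 1.02). The telomeric neighbour took 26.3% and 24.8% (0.941-fold, 0.921 to 0.961). Folds of the remaining named losses, 113860001 (0.788) and 114160001 (0.827), rested on 132 and 85 deltaBor contacts, and the interval of the second reached 1.10.

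The step in the Sox9 profile at the boundary was measured as the contacts of the 100 kb on its Sox9 side (111410001 to 111510000) over those of the 100 kb on its Kcnj side (111280001 to 111380000). This ratio was 4.74 in WT (4.34 to 5.20), 4.31 in Dup-S, 4.76 in Dup-L and 4.58 in Dup-C. It was 2.14 in deltaBor (1.97 to 2.34) and 2.15 in Dup-LdeltaBor. The 4 genotypes that keep the boundary thus lay together, and both that lack it lay below them, with ratios still above 1. On KR-normalised values the ratio was 1.76 in deltaBor, 1.71 in Dup-LdeltaBor and 3.57 to 3.83 in the other 4 genotypes. The step at the next minimum on the telomeric side was steady, with telomeric over centromeric contacts of 0.211 to 0.255 in the 6 genotypes.

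**Figure D2:**
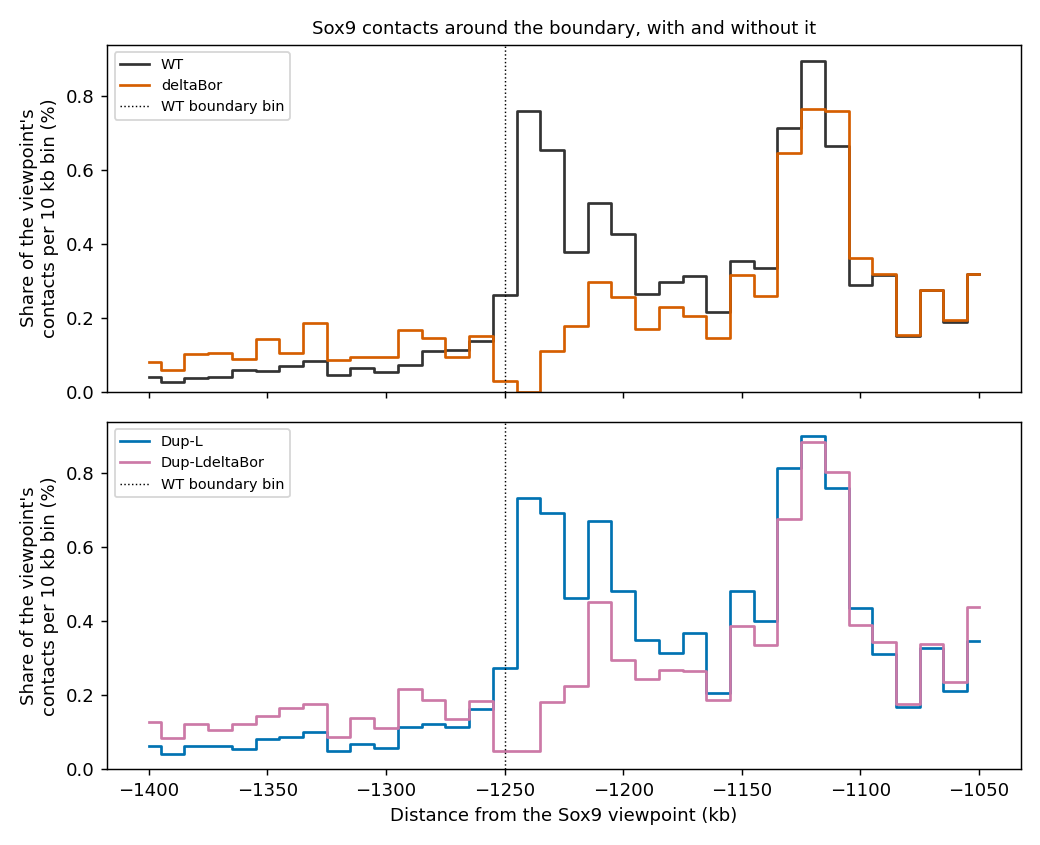
Share of the Sox9 viewpoint's contacts per 10 kb bin (percent) against distance from the viewpoint (kb), for WT and deltaBor in the upper panel and Dup-L and Dup-LdeltaBor in the lower panel, with the WT boundary bin dotted. Where the boundary was lost, contacts directly on its Sox9 side were lower and those on the Kcnj side mostly higher. Not every bin further towards Sox9 was lower (111520001 had 0.663% in WT and 0.757% in deltaBor). The peak at 111510001 (0.893% in WT and 0.764% in deltaBor) remained visible.

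In Dup-S, the short duplication inside the desert, Sox9 gained contacts with the duplicated segment and, in raw shares, with no other stretch of the desert. The segment rose from 19.7% in WT to 25.3% (13000 contacts), 1.29-fold (1.26 to 1.32), and 42 of its 42 bins were higher. Over all 584 bins outside the viewpoint, 254 were higher. The boundary-side stretch of Q was lower, at 13.0% in WT and 11.1% in Dup-S (0.856-fold, 0.828 to 0.884). The Sox9-side stretch went from 16.7% to 16.2% (0.974-fold, 0.947 to 1.00). The Kcnj-side domain took 5.51% (0.921-fold, 0.878 to 0.965). Measured per contact of Sox9 with telomeric chromatin, which no duplication touches, the segment was 1.40-fold and the Kcnj-side domain 0.999-fold of WT. On KR-normalised values the segment's fold was 1.02.

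No window of the Dup-S profile passed 1.5-fold in either direction, among 57 counted. The background was 2.58% of windows higher and 0.197% lower. The largest gains were 112030001 (1.32-fold, 1.27 to 1.38) and 111930001 (1.26-fold), both in the duplicated segment, and 110030001 (1.32-fold), whose interval of 0.958 to 1.80 rested on 80 contacts. The largest losses were 113660001 (0.771), 114460001 (0.779) and 111630001 (0.809). The profile stepped up at the start of the segment, with 2.07 times as many contacts in the 100 kb inside it as in the 100 kb before it, against 1.34 in WT. At the end the ratio was 0.558 against 0.785. On KR-normalised values both steps were closer to WT, at 1.47 against 1.28 for the start and 0.849 against 0.874 for the end. In the authors' deposited difference map of Dup-S minus WT, 90.5% of the pairs between the viewpoint and the segment were above 0. Of its pairs with all centromeric and all telomeric chromatin, 47.1% and 38.9% were above 0.

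In Dup-L, which duplicates the boundary with chromatin from both domains, Sox9 gained contact with P and lost contact with the Kcnj-side chromatin beyond the duplication. The added copy may lie between Sox9 and that chromatin, and its part in the loss was not tested. P took 2.77% of its contacts (1962), against 2.19% in WT (1589), a fold of 1.27 (1.18 to 1.35). The stretch outside every duplication fell from 2.85% to 1.66% (0.581-fold, 0.541 to 0.625), and the Dup-C-only piece, which Dup-L leaves single, from 0.938% to 0.482% (0.513-fold, 0.449 to 0.585). The far centromeric chromatin fell from 1.51% to 1.09% (0.721-fold). On KR-normalised values the fold of P was 0.991, while the 2 losses next to the duplication were 0.723 and 0.569.

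The duplicated part of the desert itself differed little from WT at Sox9. The boundary-side stretch of Q rose from 13.0% to 14.5% (1.11-fold), the Dup-S segment from 19.7% to 21.0% (1.07-fold) and the Sox9-side stretch from 16.7% to 17.1% (1.02-fold, 0.998 to 1.05). The whole of Q was 1.07-fold of WT in raw shares and 0.902-fold on KR-normalised values, so its direction depended on the scale. Outside the viewpoint's contacts, Q had 1.74 times and P 1.89 times the WT coverage, relative to the median telomeric bin. Per telomeric contact of Sox9, the folds were 1.12 for Q and 1.33 for P. The folds of Sox9 were thus below the coverage of the duplicated stretches. That coverage includes pairs with both ends inside the duplication, which no contact of Sox9 has, so the 2 measures are not alike.

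Of 57 windows in Dup-L, 1 was higher by 1.5-fold and 12 were lower. The background was 6.82% higher and 11.1% lower. The gain was 111030001 in P (1.56-fold, 1.31 to 1.85), and the next gains were 111230001 (1.31-fold) in P and 113960001 (1.31-fold) in telomeric chromatin. All 12 losses lay centromeric of the duplication. The largest were 110130001 (0.539), 110830001 (0.540) and 110730001 (0.542). At the start of the Dup-L segment the Sox9 profile stepped up 2.26-fold, where WT had a ratio of 0.895.

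In Dup-C, whose duplication extends further into the Kcnj side, the same pattern was shifted outwards. The Dup-C-only piece took 1.22% of the contacts of Sox9 (379), against 0.938% in WT (681), a fold of 1.301 (1.14 to 1.48). It was the single stretch where Dup-C and Dup-L parted most, with a fold of Dup-C over Dup-L of 2.53 (2.18 to 2.94). P was 2.77% in both Dup-C and Dup-L. The stretch outside every duplication fell to 0.812% (252 contacts), 0.285-fold of WT (0.249 to 0.325). The far centromeric chromatin fell to 0.760%, 0.504-fold (0.436 to 0.581). On KR-normalised values the Dup-C-only piece was 0.969-fold and P 0.986-fold of WT, while the stretch outside every duplication was 0.363-fold.

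Dup-C and Dup-L were each compared with the same WT library. Per published descriptions, Kcnj2 and Kcnj16 lie in the piece that only Dup-C duplicates, which is given as background since the files carry no gene positions. In Dup-C, 51 windows were counted, of which 0 were higher by 1.5-fold and 11 were lower. The background was 8.71% higher and 27.1% lower, so losses made up a smaller part of the windows of Sox9 than of the background. With no test possible, these counts are descriptions of 1 library. The window 110330001 had the lowest fold, 0.214 (0.159 to 0.283), with 54 contacts against 591 in WT, where it had 3.13 times the count expected for its distance. The largest gains were 111130001 (1.47-fold), 110830001 (1.36-fold) and 111230001 (1.34-fold). At the start of the Dup-C segment the profile stepped up 3.14-fold (2.27 to 4.43), against 1.09 in WT, and on KR-normalised values 2.04-fold against 1.12. None of the 11 losses lay telomeric of that step. Per telomeric contact, Q was 1.10-fold and P 1.31-fold of WT, beside coverage of 1.96 and 2.17 times.

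Dup-LdeltaBor and Dup-L carry the same duplication without and with the boundary. The libraries also differed in the coverage of the duplicated stretches outside the viewpoint's contacts, which in Dup-LdeltaBor was 1.44 times that of Dup-L for P and 1.37 times for Q, relative to the median telomeric bin. The part of this difference in the folds was not tested. Sox9 contacted P more, with 5.33% of its contacts (3603) against 2.77% (1962), a fold of 1.92 (1.82 to 2.03), 2.00 per telomeric contact and 1.73 on KR-normalised values. All 42 bins of P were higher, against 262 of the 583 bins with contact outside the viewpoint. Against WT, P was 2.43-fold (2.29 to 2.58), and 1.72-fold on KR-normalised values. Per telomeric contact it was 2.66-fold of WT, beside a coverage of P of 2.74 times. The boundary-side stretch of Q was lower, at 12.55% against 14.5% (0.865-fold, 0.840 to 0.890). This stretch includes the lost bin and its neighbour 111400001, which went from 0.733% and 0.694% to 0.0503% and 0.181%. The 100 kb that follow this neighbour fell from 4.55% to 3.34% (0.733-fold). The Sox9-side stretch rose from 17.1% to 18.6% (1.09-fold, 1.06 to 1.12), but was 0.977-fold on KR-normalised values.

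Outside the duplication Sox9 did not gain Kcnj-side contacts in this library. The stretch outside every duplication went from 1.66% in Dup-L to 1.14% (0.688-fold, 0.627 to 0.754), the Dup-C-only piece from 0.482% to 0.383% (0.796-fold, 0.674 to 0.938), and the far centromeric chromatin from 1.09% to 0.798% (0.734-fold). In deltaBor without a duplication the same 3 stretches had risen. The profile of Dup-LdeltaBor stepped up 6.08-fold at the start of the duplicated segment, against 2.26 in Dup-L. On KR-normalised values these ratios were 3.38 and 1.78. The lost bin kept 34 contacts (0.0503%) here, against 519 (0.733%) in Dup-L.

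Of 52 counted windows, 4 were higher by 1.5-fold and 6 were lower than in Dup-L. The background was 2.5% higher and 5.49% lower. All 4 gains lay in or overlapped P, led by 111130001 (2.36-fold, 2.08 to 2.67), 111030001 (1.93-fold) and 111230001 (1.90-fold). The named losses were 111330001, which spans the boundary (0.527), and 110430001 (0.617) and 110330001 (0.650) on the Kcnj side. The first was 0.830-fold on KR-normalised values, and it holds the lost bin and its neighbour 111400001. These bins had 519 and 491 contacts in Dup-L and 34 and 122 in Dup-LdeltaBor. In the authors' deposited difference map of Dup-LdeltaBor minus Dup-L, 97.6% of the pairs between the viewpoint and P were above 0. For the stretch outside every duplication that authors' deposited map had 32.7% above 0. For all centromeric and all telomeric chromatin it had 50.5% and 44.5% above 0.

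**Figure D3:**
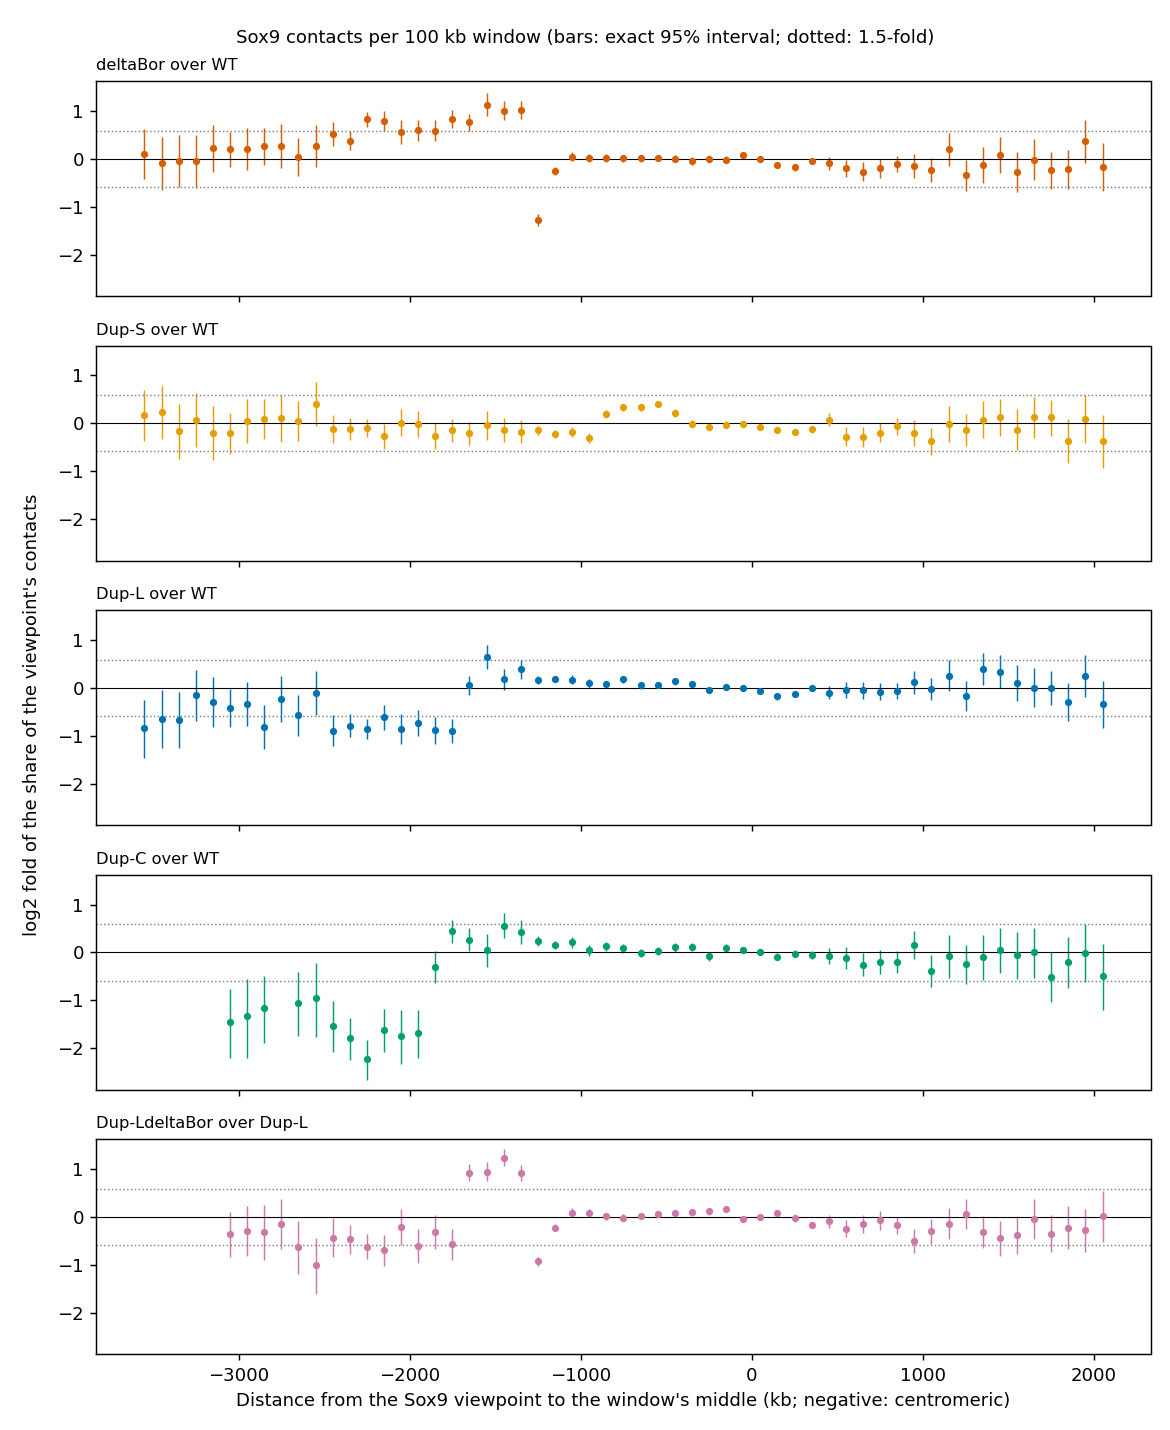
log2 fold of the share of the Sox9 viewpoint's contacts in each counted 100 kb window (points, with exact 95% intervals as bars) against distance from the viewpoint (kb), with 1 panel per comparison and 1.5-fold dotted. Gains of deltaBor fill the Kcnj-side domain, with 9 of 57 windows past 1.5-fold (background 4.35%), and those of Dup-LdeltaBor over Dup-L are 4 of 52 windows, at P (background 2.5%). Dup-L and Dup-C have 12 of 57 and 11 of 51 windows lower, centromeric of their duplications (background 11.1% and 27.1%).

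Set in order, the share of Sox9's contacts with P was 2.01% in Dup-S, 2.19% in WT, 2.77% in Dup-C, 2.77% in Dup-L, 3.98% in deltaBor and 5.33% in Dup-LdeltaBor. The intervals of Dup-C (2.59% to 2.96%) and Dup-L (2.65% to 2.90%) overlapped, as did those of Dup-S (1.89% to 2.13%) and WT (2.08% to 2.30%), and the others did not overlap their neighbours. On KR-normalised values the order was 2.50% in Dup-S, 2.63% in Dup-C, 2.64% in Dup-L and 2.66% in WT. Dup-LdeltaBor (4.58%) and deltaBor (4.65%) followed, so the order depended on the scale. The order for the Kcnj-side stretch outside every duplication was 0.812% in Dup-C, 1.14% in Dup-LdeltaBor, 1.66% in Dup-L, 2.65% in Dup-S, 2.85% in WT and 4.48% in deltaBor. The 3 long duplications were thus lowest there, and deltaBor was highest. Dup-LdeltaBor had 0.255 times the deltaBor share of that stretch and 1.34 times the deltaBor share of P, the latter 0.984 times on KR-normalised values.

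**Figure D4:**
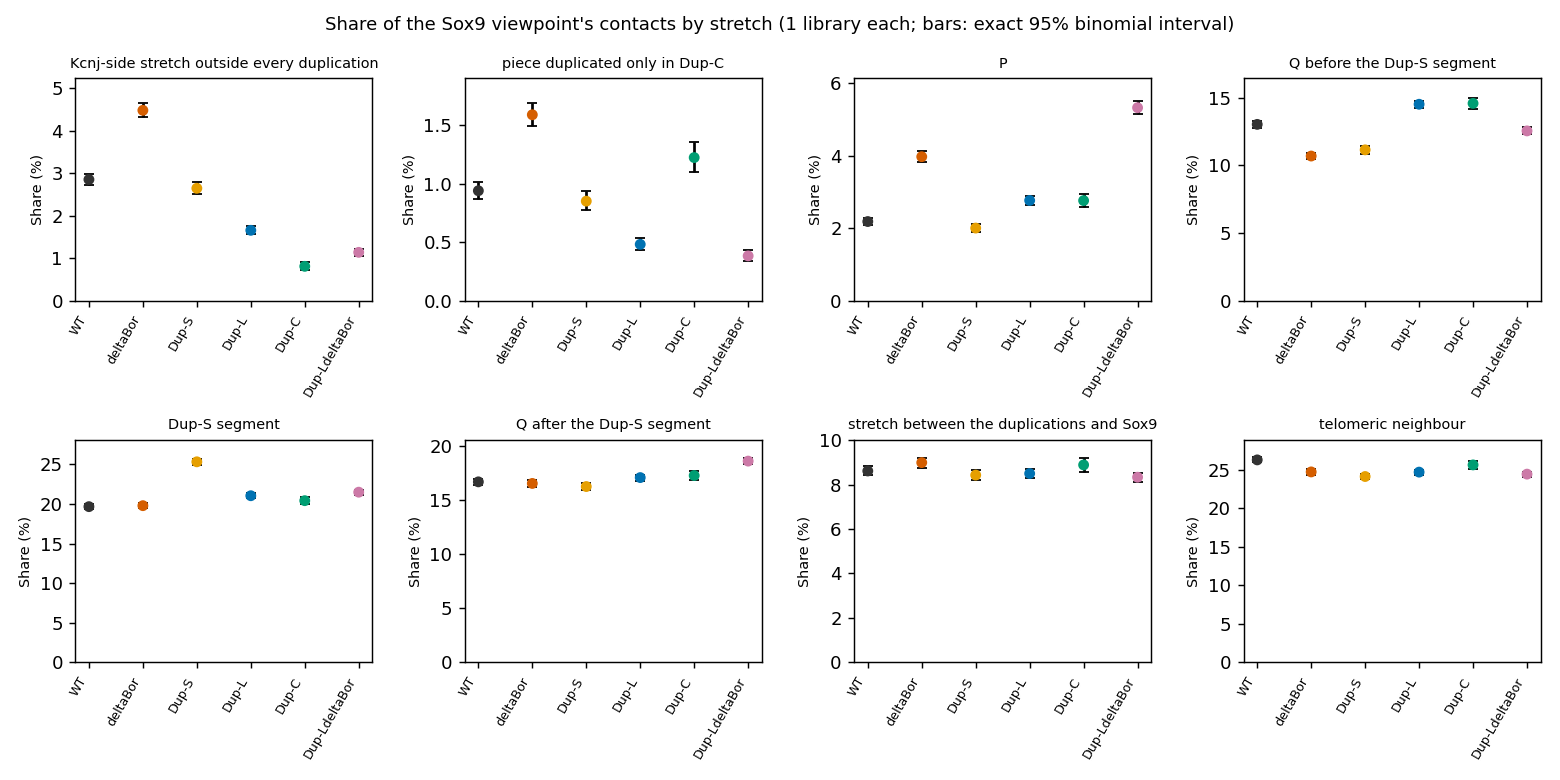
Share of the Sox9 viewpoint's contacts (percent, axes from 0) with 8 stretches of the locus in the 6 genotypes, 1 library each, with exact 95% binomial intervals as bars. In the titles, Q before and Q after the Dup-S segment are the boundary-side and Sox9-side stretches of Q; P runs from 2.01% (Dup-S) to 5.33% (Dup-LdeltaBor), and the stretch outside every duplication from 0.812% (Dup-C) to 4.48% (deltaBor).

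The gain of P after loss of the boundary was set beside the same value for the 77 other 30 kb viewpoints that lie telomeric of the duplications, each against its own contacts. For deltaBor over WT, Sox9 had a fold of 1.82, and the others ran from 0.896 to 1.75 with a median of 1.10. The 13 others within 300 kb of Sox9 had 1.31 to 1.47. Just beyond them, 112990001 to 113020000 had 1.55 and 113020001 to 113050000, 390 kb telomeric, had the 1.75. That value lay inside the interval of Sox9 (1.71 to 1.94), so the first place of Sox9 in this comparison was within counting error. For Dup-LdeltaBor over Dup-L, Sox9 had 1.92 and the others 0.994 to 1.68, with a median of 1.24. The Sox9 viewpoint thus had the highest fold of P in both comparisons, also on KR-normalised values (1.75 against at most 1.67, and 1.73 against at most 1.49). Its fold started from a lower share, since in WT P took 2.19% of the contacts of Sox9. For the 13 others within 300 kb P took 2.46% to 2.95% in WT. The order of the folds is thus not an order of the shares themselves. These viewpoints share libraries and lie side by side, so the order is a description and not a test.

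For the duplications without loss of the boundary, Sox9 was not at the top. In Dup-L its fold of P of 1.27 exceeded 39 of the 77, and in Dup-C its 1.26 exceeded 35. Its fold of Q in Dup-L, 1.07, exceeded only 2 of the 77, whose median was 1.32. In Dup-C its fold of Q was 1.06, with 2 of 77 below it and a median of 1.31. The 13 others within 300 kb of Sox9 were closer to it, with folds of Q of 1.06 to 1.20 in Dup-L and 1.04 to 1.17 in Dup-C. By the mean absolute log2 difference over the 10 folds of P and Q, the 3 most similar viewpoints were 112570001 to 112600000 (0.081), 112990001 to 113020000 (0.088) and 112600001 to 112630000 (0.091). A pair of these lies directly centromeric of Sox9, and the other lies 360 kb telomeric of it, beside the next minimum.

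**Figure D5:**
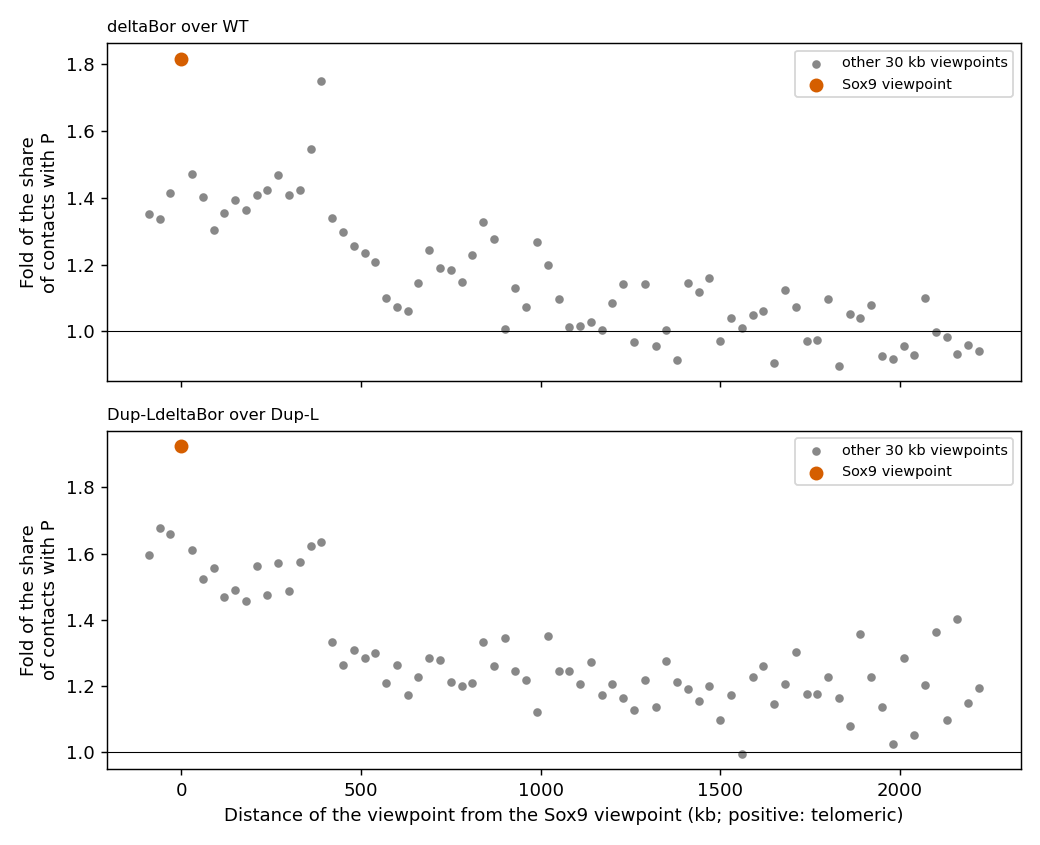
Fold of the share of contacts with P for the Sox9 viewpoint (large point) and the 77 other 30 kb viewpoints telomeric of the duplications (small points), against distance from Sox9 (kb), for deltaBor over WT above and Dup-LdeltaBor over Dup-L below. Sox9 has 1.82 and 1.92, and the other viewpoints lie below it in both panels, with medians of 1.10 and 1.24 and highest values of 1.75 and 1.68.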

How the data were processed

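Capture Hi-C of 6 limb bud libraries was read from contact maps with bins of 10 kb. Per the submitters' processing notes, Bowtie2 2.2.6 was used and the build was mm9, and the deposited file names mark a mapping quality of 30. The sources used here do not state the filters on read pairs, duplicate removal or the balancing tool. For each library the authors deposited raw contact counts per pair of bins, the signal of the same maps after KR (Knight-Ruiz) balancing, and score maps that hold differences between 2 scaled raw maps. The authors' deposited log2 ratio maps were not used here. Positions of Dup-C and Dup-S are offsets in the files. Placed on the same bins, their bin sums had correlations with WT of 0.915 and 0.986, and no other shift tried exceeded 0.580 and 0.607.

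Raw counts were the main values (Python 3.11.15, numpy 2.4.6, pandas 2.3.3, scipy 1.17.1, matplotlib 3.10.9). Altered segments were the runs of bins whose log2 ratio of contact sums to the control, without the viewpoint's contacts and with a pseudocount of 0.5, differed most from the rest. Domain ends were WT minima of an insulation score, the log2 mean contact count in a 500 kb diamond, with a prominence of 0.3 or more. Windows of 100 kb were tiled outwards from the viewpoint and counted where both libraries together held at least 100 contacts. The background is the percentage of such windows past 1.5-fold over the 194 other viewpoints of 3 bins, which include viewpoints inside the duplications. Named were the 5 WT windows and bins (at least 5 bins away) with the highest observed over expected count, the 3 largest gains and losses of each comparison with at least 50 contacts in both libraries, and the 3 viewpoints most like Sox9. The limit for a count of 0 is the upper end of the exact interval.

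Alternatives were KR-normalised values, scaling per telomeric contact, the middle bin alone, contacts under 10 bins left out, 10 bins of low coverage left out, and thresholds of 1.3-fold and 2-fold. An alternative added after seeing the data left out the lost bin and the bin on each side. The viewpoint, stretches and rules were chosen with earlier results of these data known. Only the fold with its interval and the search for duplicated segments were run on simulated data. There the fold was taken against the contacts outside the stretch, not against all contacts of the viewpoint as in the reported shares. The other steps were not simulated.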

Additional observations from a re-analysis of the deposited data

Results flagged for a closer look

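Sox9's contacts with 3 stretches differed in opposite directions between deltaBor over WT and Dup-LdeltaBor over Dup-L. Each genotype had 1 library, so the difference between the comparisons was not tested. Dup-LdeltaBor also had more coverage of the duplicated stretches than Dup-L (1.44 times for P and 1.37 times for Q), and its part in these folds was not tested. For the Kcnj-side stretch outside every duplication, the fold was 1.57 (deltaBor over WT) and 0.688 (Dup-LdeltaBor over Dup-L). For the piece duplicated only in Dup-C it was 1.69 and 0.796. For the chromatin centromeric of the Kcnj-side domain it was 1.15 and 0.734. The 3 pairs kept these directions on KR-normalised values (1.57 and 0.746, 1.59 and 0.942, 1.14 and 0.797) and per telomeric contact (1.67 and 0.716, 1.80 and 0.828, 1.23 and 0.764). Beyond the duplicated segment, Dup-L and Dup-C with the boundary present were also below WT, at 0.581-fold and 0.285-fold for the stretch outside every duplication. The part of a greater distance through the added copy was not tested. P, inside the duplication, was higher in both (1.82 and 1.92).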

How the results depend on the processing

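No paired analysis was possible because each genotype had 1 library. Raw shares gave folds for the Kcnj-side domain of 1.68 (deltaBor), 1.40 (Dup-LdeltaBor over Dup-L), 0.921 (Dup-S), 0.821 (Dup-L) and 0.803 (Dup-C), and for the desert between the boundary and Sox9 of 0.966, 0.997, 1.05, 1.05 and 1.05. Per telomeric contact the Kcnj-side folds were 1.79 (deltaBor), 0.999 (Dup-S) and 0.863 (Dup-L). The desert's folds were then 1.03 in deltaBor, the opposite direction, and 1.14 (Dup-S), 1.11 (Dup-L), 1.10 (Dup-C) and, over Dup-L, 1.04 in Dup-LdeltaBor. KR-normalised values turned the desert's direction in Dup-L (0.951) and Dup-C (0.944), and gave 1.01 (Dup-S) and 0.949 (Dup-LdeltaBor over Dup-L). They gave Kcnj-side folds of 0.694 (Dup-C) and 1.24 (Dup-LdeltaBor over Dup-L). KR balancing gives all bins equal sums, duplicated bins included. The middle bin alone gave Kcnj-side folds of 1.87 (deltaBor) and 0.885 (Dup-C), and desert folds of 1.04 (Dup-L) and 1.03 (Dup-C). Leaving out near contacts, low-coverage bins, or the lost bin with its neighbours (the last chosen after seeing the data) moved no domain fold beyond its interval.

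Counts of windows past the threshold moved by over 1.5 times with KR-normalised values in Dup-S (1 instead of 0), Dup-L (7 instead of 13) and Dup-LdeltaBor over Dup-L (6 instead of 10). At 1.3-fold there were 2 in Dup-S and 17 in Dup-C (11 at 1.5-fold). At 2-fold there were 3 in deltaBor (10 at 1.5-fold), 0 in Dup-L and 2 in Dup-LdeltaBor over Dup-L. The cause of these moves was not tested. Depth limits windows far from Sox9 most, above all in Dup-C, where 7 of 58 windows were not counted.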

Other observations

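The Kcnj-side partner of Sox9 with the highest WT count for its distance, outside the boundary window, was the 100 kb window from 110330001. It held 591 contacts in WT (0.814% of the viewpoint's contacts), 3.13 times the expected count. In deltaBor its share was 1.77-fold that of WT, in Dup-L 0.553-fold and in Dup-C 0.214-fold, and in Dup-LdeltaBor it was 0.650-fold that of Dup-L. This window was singled out after its values were seen.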
